A study of Canis lupus familiaris with 6 samples.

Results

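The phagocyte NADPH oxidase subunits are the proteins that together make superoxide in neutrophils and monocytes, and their mRNA was compared here in whole blood of dogs fed with or without CPP-Se. The members were chosen by name, as the genes with the symbols CYBA, CYBB, NCF1, NCF4, RAC1 and RAC2. Of these 6 genes, 5 had a row among the 31512 genes of the deposited table, and all 5 were among the 9847 genes tested. NCF1 (p47phox), the organizer subunit that carries the cytosolic complex to the membrane, had 0 rows under its symbol and 0 rows under its protein name, and it was not analysed here.

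The animals were healthy adult Beagle dogs of 1.5 years, all fed the same maintenance food, and blood was taken on day 30. The control group (3 dogs) was fed 30 g of a snack without CPP-Se, and the CPP-Se group (3 dogs) was fed 30 g of a snack that held 0.03% of CPP-Se, in which phosphopeptides from casein chelate selenium. The study asked how this supplement altered gene expression in blood. Each dog gave 1 poly-A library, and the 6 dogs sequenced came from a feeding trial of 12, without a sample from before the feeding.

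In resting phagocytes the oxidase is taken apart. A membrane pair, gp91phox (CYBB) and p22phox (CYBA), forms flavocytochrome b558, while p47phox (NCF1), p40phox (NCF4) and their partners wait in the cytosol. When a receptor for microbes or opsonins is engaged, the cytosolic subunits are phosphorylated, a Rac GTPase is loaded with GTP, and all of them gather on the membrane pair, which then passes electrons from NADPH to oxygen. Loss of CYBB, CYBA, NCF1 or NCF4 is known as a cause of chronic granulomatous disease, in which phagocytes engulf microbes but kill them poorly.

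Levels are given as FPKM, which divides a gene's fragments by its length and by the size of the library. Genes took up 6598173 to 8067034 reads in each dog, and a member held between 221 (CYBB in CPP-Se replicate 3) and 7937 (RAC2 in CPP-Se replicate 2) of them. The library of CPP-Se replicate 2 stood apart in its content of 8 hemoglobin genes, which took 36.6% of its reads, where they took 48.7% to 55.9% elsewhere. Its deposited FPKM summed to 303449, against 458774 to 540009 in the others. Gene positions are those of the deposited table, on the dog genome of Ensembl release 100. No sequence is shown, since none was given with the files used here.

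The oxidase mRNAs did not all differ in the same direction between the groups. CYBB and NCF4 were lower in every CPP-Se dog than in every control dog, RAC1 and CYBA had lower means with overlapping groups, and RAC2 had a higher mean with overlapping groups. After adjustment over all genes tested, 0 of the 5 members passed the thresholds of the study (an adjusted p below 0.05 with a 1.5-fold difference or more), and 3 genes in all passed them (0.0305% of those tested). Lower values in every CPP-Se dog were found in 2 of the 5 members, against 12.6% of all genes tested, and higher values in every CPP-Se dog in 0 of 5, against 10.4%. At an unadjusted p under 0.05, 1 member (CYBB) was lower, against 9.1% of all genes tested, and 0 were higher, against 6.87%. The median log2 fold change was -0.42 over the 5 members and -0.0043 over all genes tested. FPKM is relative to the whole library, so in whole blood a smaller share of cells of a type and less mRNA per cell cannot be told apart. The study reports more blood leukocytes with CPP-Se than in the control group, and it gives no counts by cell type.

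**Figure D1:**
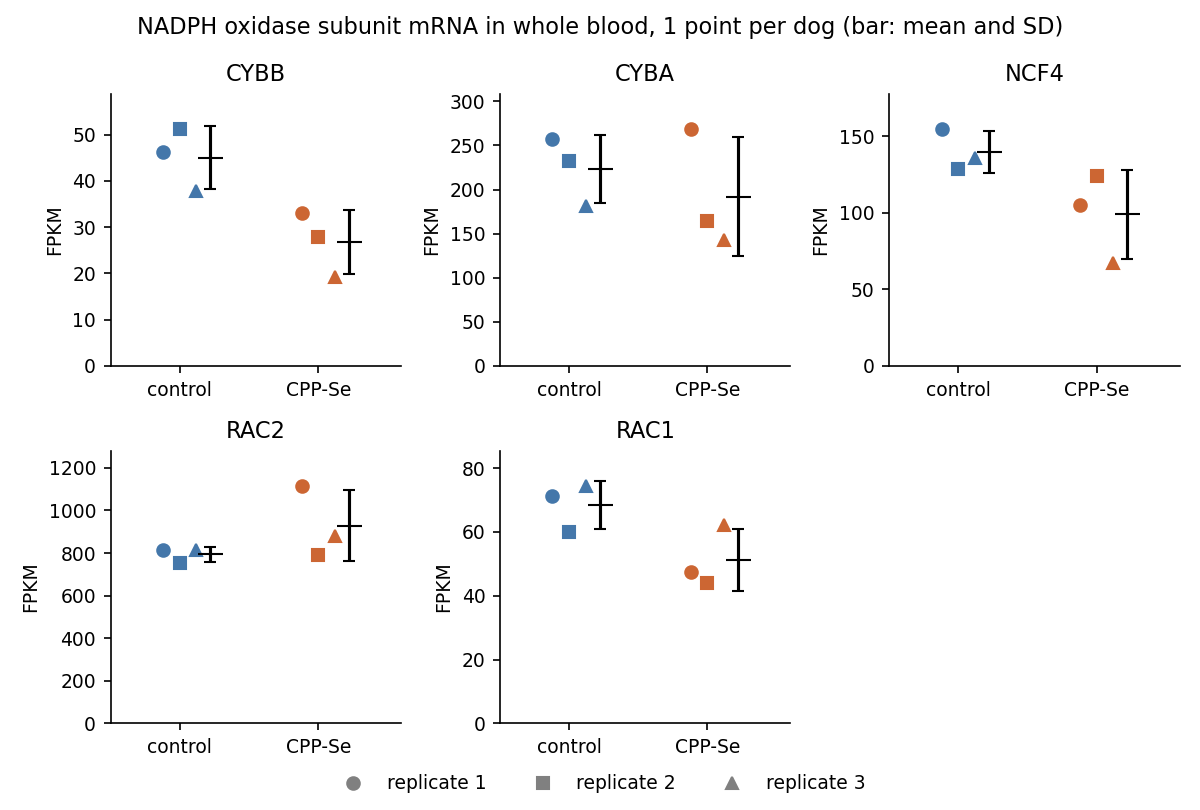
FPKM of 5 members in whole blood, with 1 point per dog (circle, square and triangle for replicates 1, 2 and 3) and the mean with SD of 3 dogs beside the points; each vertical axis starts at 0 and has its own scale. For CYBB and NCF4 the 3 CPP-Se dogs lie below the 3 control dogs, while for CYBA, RAC1 and RAC2 the groups overlap.

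CYBB (ENSCAFG00000013933, chromosome X, 32533320 to 32568217), the flavin- and heme-binding subunit through which the electrons pass, had FPKM of 46.1, 51.2 and 37.7 in control replicates 1, 2 and 3 and of 33.1, 27.8 and 19.3 in CPP-Se replicates 1, 2 and 3. The highest CPP-Se dog therefore lay below the lowest control dog. The means were 45.0 ± 6.81 in the control group and 26.7 ± 6.98 in the CPP-Se group (SD, n = 3 each). The log2 fold change was -0.75 (SE 0.24, 95% confidence interval -1.31 to -0.19), which did not pass after adjustment (limma, adjusted p = 0.212). CYBB had no overlapping gene in the annotation, and it was the member with the lowest level, at rank 1126 of the genes tested by mean FPKM.

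CYBA (ENSCAFG00000019881, chromosome 5, 64692123 to 64704893), the small membrane partner that steadies gp91phox and offers the docking site for p47phox, had FPKM of 257, 233 and 181 in the control group, against 269, 164 and 143 in the CPP-Se group. CPP-Se replicate 1 was the highest of all 6 dogs, and the other CPP-Se dogs were the lowest. The means were 223 ± 38.8 and 192 ± 67.4 (SD, n = 3 each), with a log2 fold change of -0.26 (SE 0.29, interval -0.92 to 0.40, limma, adjusted p = 0.700). Leaving out a dog moved it to -0.53 (without CPP-Se replicate 1), -0.40 (without control replicate 3), -0.15 (without control replicate 1) or -0.075 (without CPP-Se replicate 3). The gene overlaps ZC3H18 on the other strand, which held a mean of 207.5 reads per dog, and how reads on either strand were counted is not given in the sources used here.

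NCF4 (ENSCAFG00000001522, chromosome 10, 27597486 to 27615261) encodes p40phox, the cytosolic subunit that binds phosphatidylinositol 3-phosphate on phagosomes. Its FPKM were 155, 129 and 136 in the control group, against 105, 124 and 67.2 in the CPP-Se group. The groups did not overlap, but CPP-Se replicate 2 lay close to control replicate 2, and CPP-Se replicate 3 lay far below all other dogs. The means were 139.6 ± 13.4 and 98.9 ± 29.0 (SD, n = 3 each), with a log2 fold change of -0.53 (SE 0.26, interval -1.13 to 0.06, limma, adjusted p = 0.363). Without CPP-Se replicate 3 it was -0.28, and without CPP-Se replicate 2 it was -0.72.

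RAC2 (ENSCAFG00000001508, chromosome 10, 27295640 to 27311397) is the Rac GTPase of blood cells and the main one of the neutrophil oxidase, and lymphocytes also express it. It had FPKM of 813, 754 and 816 in the control group, against 1113, 792 and 881 in the CPP-Se group. CPP-Se replicates 1 and 3 lay above all control dogs, while CPP-Se replicate 2 lay among them. The means were 794.6 ± 34.8 and 929 ± 166 (SD, n = 3 each), with a log2 fold change of 0.21 (SE 0.23, interval -0.33 to 0.75, limma, adjusted p = 0.701). Without CPP-Se replicate 1 it was 0.074, and without CPP-Se replicate 2 it was 0.32.

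RAC1 (ENSCAFG00000015716, chromosome 6, 11655494 to 11757216), the Rac GTPase found in nearly all cells and used by the monocyte oxidase, had FPKM of 71.2, 59.9 and 74.3 in the control group, against 47.4, 44.1 and 62.2 in the CPP-Se group. Only CPP-Se replicate 3 reached into the control range, just above control replicate 2. The means were 68.5 ± 7.57 and 51.2 ± 9.67 (SD, n = 3 each), with a log2 fold change of -0.42 (SE 0.20, interval -0.89 to 0.05, limma, adjusted p = 0.363). The locus overlaps an unnamed gene on the other strand, which held a mean of 80.5 reads per dog. A separate unnamed gene described as a Rac protein, on chromosome 9, held 1 read over all dogs.

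RAC2 and NCF4 lie 286 kb apart on chromosome 10, with 13 annotated genes between them. Of the 6 tested genes in that stretch, 2 were lower and 2 were higher in every CPP-Se dog than in every control dog, against 12.6% and 10.4% of all genes tested.

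The order of levels, per length of gene, was the same in both groups: RAC2, CYBA, NCF4, RAC1 and CYBB. No neighbours in that order overlapped in either group. By difference in FPKM, the closest ranges in the control group were those of RAC1 (lowest dog 59.9) and CYBB (highest dog 51.2). In the CPP-Se group they were those of NCF4 (lowest dog 67.2) and RAC1 (highest dog 62.2). In the control group the mean of RAC2 was 3.56 times that of CYBA, and in the CPP-Se group it was 4.85 times that of CYBA.

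RAC2 made up a larger share of the members' mRNA in the CPP-Se dogs, and CYBB a smaller one. Of the summed FPKM of the 5 members, RAC2 held 60.6%, 61.5% and 65.6% in the control group, against 71.0%, 68.8% and 75.1% in the CPP-Se group, without overlap. CYBB held 3.44%, 4.17% and 3.03% in the control group, against 2.11%, 2.41% and 1.65% in the CPP-Se group, also without overlap. The shares of CYBA, NCF4 and RAC1 had lower means in the CPP-Se group, with overlapping groups.

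Ratios of members within a dog do not depend on how the libraries were scaled, and 3 pairs were compared. CYBB over CYBA, the catalytic subunit over its membrane partner, was 0.180, 0.220 and 0.208 in the control group, against 0.123, 0.170 and 0.135 in the CPP-Se group. RAC2 over RAC1, the blood cell GTPase over the common one, was 11.4, 12.6 and 11.0 in the control group, against 23.5, 18.0 and 14.2 in the CPP-Se group. CYBB over RAC2 was 0.0567, 0.0678 and 0.0462 in the control group, against 0.0298, 0.0350 and 0.0219 in the CPP-Se group. In each of the 3 ratios the groups did not overlap. The differences of the mean log2 ratio, CPP-Se minus control, were -0.51 for CYBB over CYBA, 0.64 for RAC2 over RAC1 and -0.99 for CYBB over RAC2, the last a ratio 0.505 times that of the control group. The exact permutation test, two-sided, gave p = 0.1 for each ratio (0.1 after Benjamini-Hochberg adjustment over the 3 pairs), which is the smallest p that 3 dogs against 3 allow.

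**Figure D2:**
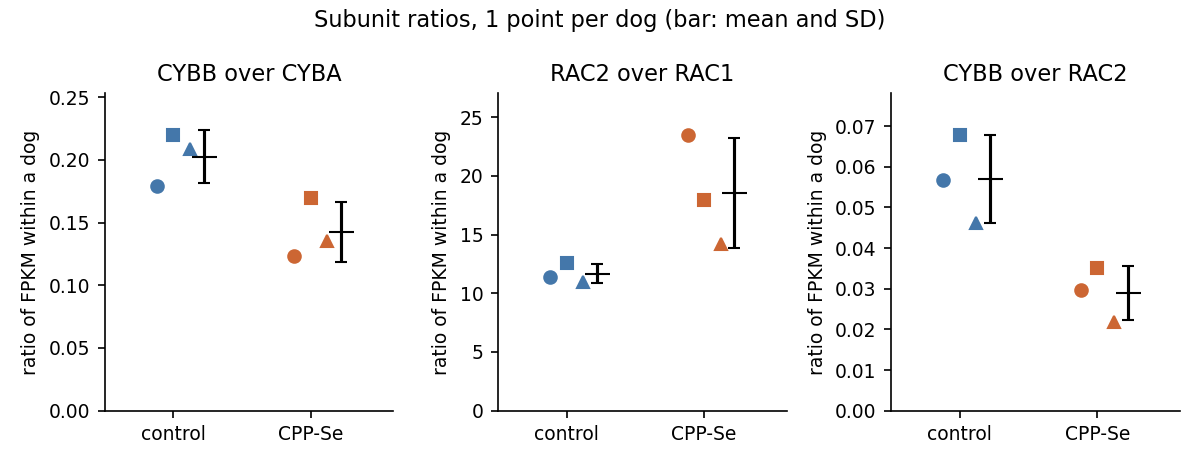
Ratio of the FPKM of 2 members within a dog, for 3 pairs, with 1 point per dog and the mean with SD of 3 dogs; each vertical axis starts at 0. The CPP-Se dogs lie below the control dogs for CYBB over CYBA (highest 0.170, lowest control dog 0.180) and CYBB over RAC2 (0.0350 and 0.0462), and above them for RAC2 over RAC1 (lowest 14.2, highest control dog 12.6).

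The direction of every member was the same under each of 16 other ways of fitting the values, among them other scalings between dogs, reads recovered from the FPKM and each dog left out in turn. Across these, the log2 fold change ranged from -0.92 to -0.54 for CYBB, from -0.72 to -0.28 for NCF4, from -0.57 to -0.27 for RAC1, from -0.53 to -0.075 for CYBA and from 0.074 to 0.37 for RAC2. None of the 16 brought a member past the thresholds. CYBB, the 1 member with an unadjusted p under 0.05, no longer had one with a common sum of FPKM, with a common sum outside the hemoglobin genes or without control replicate 2, which left 0 such members. Separation of the groups did depend on the scaling. In median-of-ratios scaling, each dog is divided by its median ratio to the geometric mean of each gene. With it, CYBB and NCF4 stayed lower in every CPP-Se dog (2 of 5 members, against 12.1% of all genes tested). When each library was brought to a common sum of FPKM, which raises CPP-Se replicate 2 most, CYBB and NCF4 overlapped between the groups, and 0 of 5 members were lower in every CPP-Se dog, against 3.15% of all genes tested. With a common sum outside the hemoglobin genes, CYBB alone was lower in every CPP-Se dog, against 4.84% of all genes tested. The 2 scalings to a common sum moved the median log2 fold change of all genes by 0.130 and 0.120.

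**Figure D3:**
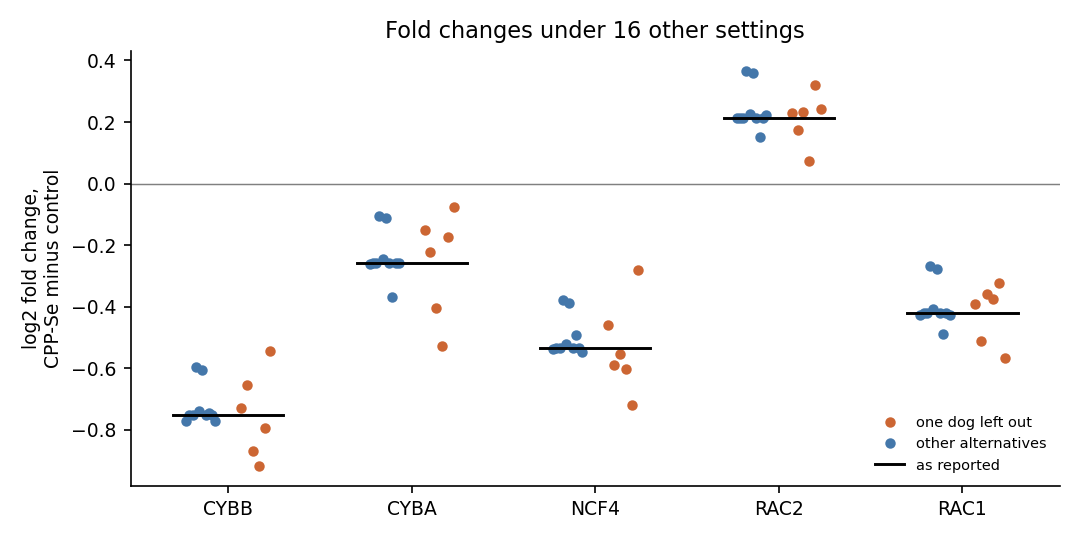
Log2 fold change of FPKM, CPP-Se minus control, of each member under 16 other settings (orange: one dog left out; blue: other alternatives), with the reported value as a black line. The points of CYBB, CYBA, NCF4 and RAC1 all lie below 0 and those of RAC2 all lie above 0, with the smallest value for RAC2 at 0.074 and for CYBA at -0.075.

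Among the other genes named for this enzyme family, NOXA1, an activator of epithelial oxidases, had FPKM of 1.70, 2.18 and 4.62 in the control group, against 14.5, 8.87 and 9.48 in the CPP-Se group, without overlap. The log2 fold change was 1.68 (SE 0.32, limma, adjusted p = 0.138), and it rested on 5, 6 and 16 reads against 40, 51 and 25. The catalytic subunits of other tissues were barely detected, and NOX1, NOX4 and NOX5 had no more than 3 reads in any dog, the floor set here. NOX3, DUOX1 and DUOX2, the maturation factors DUOXA1 and DUOXA2, and the organizer NOXO1 were listed at 0 in all 6 dogs. Of the catalytic subunits, CYBB was thus the only one above that floor.

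Genes that work with the members were followed in 6 lists, and in each of them 0 genes passed the test. The study's list of changed genes, which was chosen on these samples and holds 3.44% of all genes tested, includes 2 of the receptors, 1 of the kinases and lipid enzymes, 0 genes of the other 4 lists and 0 of the members. The lists' counts of negative log2 fold changes stand against 50.4% of all genes tested. The lists' counts of genes lower in every CPP-Se dog stand against 12.6% of all genes tested and depended on the scaling. With a common sum of FPKM (3.15% of all genes), 1 of 10 kinases and lipid enzymes and 1 of 6 receptors were lower in every CPP-Se dog, and 0 genes of the other 4 lists. Of the 3 membrane and charge partners, HVCN1, the proton channel that balances the charge moved by the oxidase, was lower in every CPP-Se dog (57.0 ± 3.81 against 39.0 ± 10.8 FPKM, log2 fold change -0.57, adjusted p = 0.296). Without CPP-Se replicate 1 its value was -0.35. CYBC1, the chaperone that the membrane pair needs for its expression, had a log2 fold change of 0.56 (SE 0.31, adjusted p = 0.423), with CPP-Se replicate 3 at 13.8 FPKM, below the control dogs. The value for CYBC1 was 0.24 without CPP-Se replicate 1, which had 35.4 FPKM, and 0.88 without CPP-Se replicate 3.

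Of the 11 kinases and lipid enzymes of assembly, 10 were tested, 8 had a negative log2 fold change, and 5 were lower in every CPP-Se dog. MAPK14, the p38 kinase that phosphorylates p47phox, had 73.3 ± 9.67 and 44.8 ± 5.28 FPKM (log2 fold change -0.70, SE 0.19, adjusted p = 0.183). PIK3C3, the kinase that makes the lipid bound by p40phox, had 1.91 ± 0.364 and 2.14 ± 0.703 FPKM (log2 fold change 0.091, SE 0.25, adjusted p = 0.893). The value for PIK3C3 ranged from -0.063 (without CPP-Se replicate 3) to 0.27 (without CPP-Se replicate 1) when a dog was left out.

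Of the Rac exchange factors and inhibitors, 9 of 10 were tested, and 6 had a negative log2 fold change. In every CPP-Se dog, 2 were lower and 1 was higher (12.6% and 10.4% of all genes tested were). PREX1, the exchange factor that loads Rac with GTP in neutrophils, had a log2 fold change of -0.56 (SE 0.24, adjusted p = 0.310), with CPP-Se replicate 2 among the control dogs. ARHGDIB, the inhibitor that holds Rac proteins of blood cells in the cytosol, had 175.3 ± 1.90 and 207.6 ± 24.7 FPKM, higher in every CPP-Se dog (log2 fold change 0.24, SE 0.19, adjusted p = 0.587). ARHGDIB and its client RAC2 thus both had higher means in the CPP-Se group, and PREX1 a lower one.

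The receptors that trigger the oxidative burst had the lowest median of the 6 lists, at -0.78 on the log2 scale. All 6 receptors tested had a negative log2 fold change, and 3 were lower in every CPP-Se dog. PTAFR, the receptor of platelet-activating factor, had the most negative value, at -0.85 (SE 0.28, adjusted p = 0.223), with 46.1 ± 11.4 and 25.3 ± 7.02 FPKM. Of the transcription factors of the myeloid subunits, 5 were tested and 3 were lower in every CPP-Se dog. SPI1 (PU.1), which drives the CYBB promoter in myeloid cells, had 309 ± 24.5 and 205.5 ± 30.4 FPKM (log2 fold change -0.59, SE 0.21, adjusted p = 0.247), without overlap. CEBPE, a factor of late granulocyte precursors, had 4.34 ± 4.49 FPKM in the CPP-Se group against 1.94 ± 0.754, through CPP-Se replicate 1 at 9.51 FPKM, and its log2 fold change of 0.58 became -0.072 without that dog, 1.00 without CPP-Se replicate 2 and 0.34 without control replicate 2.

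Of the enzymes that use superoxide and peroxide, 3 were tested and 2 were lower in every CPP-Se dog. SOD2, the mitochondrial superoxide dismutase, had 322 ± 45.3 and 198 ± 47.6 FPKM (log2 fold change -0.72, SE 0.25, adjusted p = 0.250). SOD1, the cytosolic one, had 9.64 ± 0.787 and 13.1 ± 3.98 FPKM, with overlapping groups (log2 fold change 0.36, SE 0.25, adjusted p = 0.516). The value for SOD1 was 0.20 without CPP-Se replicate 3 and 0.62 without CPP-Se replicate 1.

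**Figure D4:**
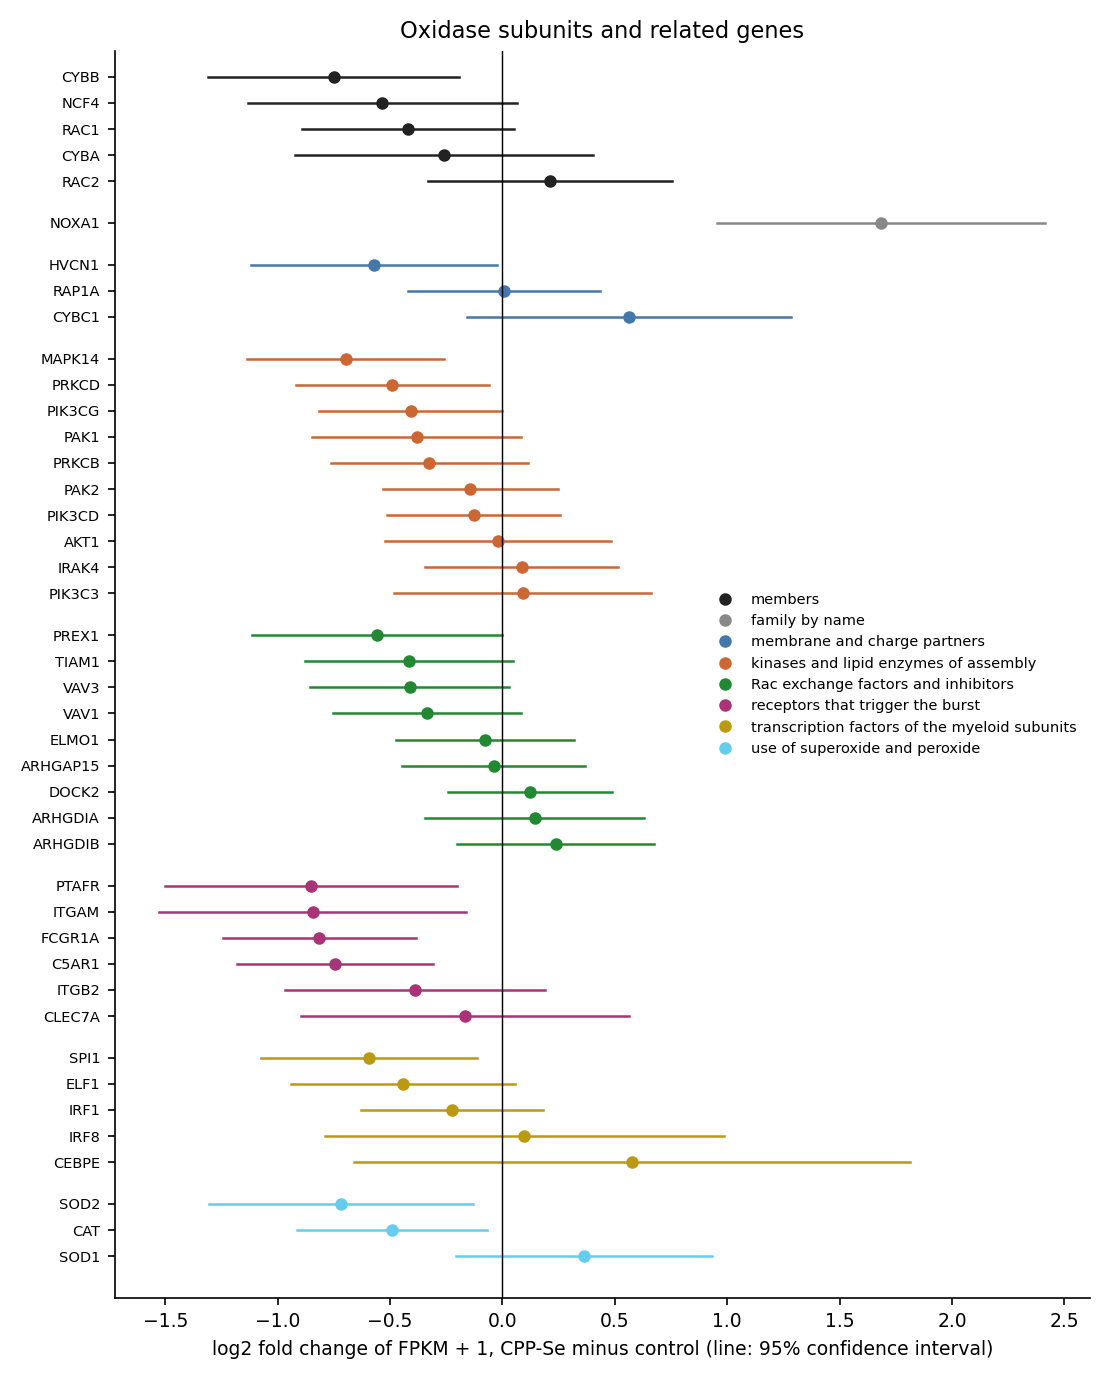
Log2 fold change of FPKM + 1, CPP-Se minus control, with its 95% confidence interval from limma (3 dogs per group), for the members (black), NOXA1 (grey) and the tested genes of 6 lists (colours). No gene shown passed the test after adjustment over 9847 genes, and all 6 receptors lie left of 0, from -0.85 for PTAFR to -0.17 for CLEC7A.

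Markers of the phagocytes that carry the oxidase had, like CYBB, mostly lower means in the CPP-Se group. Of all genes tested, 50.4% had a negative log2 fold change. Of the 10 monocyte markers tested, 10 had a negative log2 fold change and 9 were lower in every CPP-Se dog (12.6% of all genes tested were), with a median of -0.85, and their summed level was 881 to 1039 FPKM in the control dogs and 426 to 499 FPKM in the CPP-Se dogs. Of the 7 neutrophil markers tested, 6 had a negative log2 fold change and 3 were lower in every CPP-Se dog, with a median of -0.56, and their summed level was 2247 to 3027 FPKM in the control dogs and 1746 to 2247 FPKM in the CPP-Se dogs. The exception was MMP9, at 1.35 on the log2 scale with overlapping groups. None of the tested markers of either type was at 0 in any dog, while S100A9, FPR1, CXCR1, PADI4 and CD14 had no row under their symbols. Positive log2 fold changes were found for 11 of 13 T cell markers, 8 of 9 B cell markers and 7 of 7 NK and cytotoxic markers, with 6, 5 and 4 of them higher in every CPP-Se dog (10.4% of all genes tested were), and 1 T cell marker, CD4, lower in every CPP-Se dog. The summed level of the T cell markers was 907 to 1028 FPKM in the CPP-Se dogs and 1058 to 1369 FPKM in the control dogs, most of it CD4, which in dogs is also carried by neutrophils, so that this sum is no measure of T cells. Without CD4, a choice made after seeing the data, the other 12 summed to 232 to 313 FPKM in the CPP-Se dogs and 113 to 209 FPKM in the control dogs. Positive values were also found for 8 of 10 red cell markers, 3 of 7 platelet markers and 4 of 6 eosinophil and basophil markers. In these lists 0 genes passed the test, and the study's list of changed genes holds 5 monocyte, 5 T cell, 3 NK and cytotoxic, 2 neutrophil, 1 B cell, 1 red cell, 1 eosinophil and basophil and 0 platelet markers, against 3.44% of all genes tested. With a common sum of FPKM, 5 of 10 monocyte and 0 of 7 neutrophil markers were lower in every CPP-Se dog (3.15% of all genes tested were). Under that scaling 9 of 13 T cell, 2 of 9 B cell and 4 of 7 NK and cytotoxic markers were higher in every CPP-Se dog (10.6% of all genes tested were). The part of these shifts in the levels of the members was not tested.

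**Figure D5:**
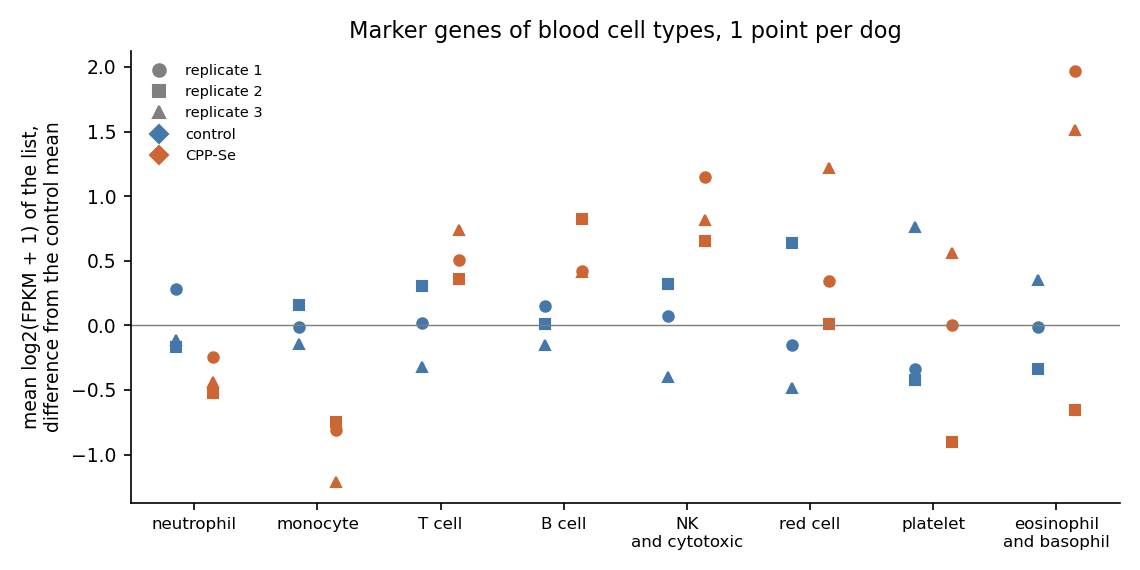
Mean log2(FPKM + 1) of the markers of 8 blood cell types, as the difference from the mean of the control group, with 1 point per dog (blue: control; orange: CPP-Se). The CPP-Se dogs lie below the control dogs for monocyte and neutrophil markers and above them for T cell, B cell and NK markers, and the groups overlap for red cell, platelet, and eosinophil and basophil markers.

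Set against the mean log2 level of the 7 neutrophil markers of the same dog, RAC2 alone was separated between the groups. The difference of CPP-Se minus control on this relative log2 scale was 0.61 for RAC2, higher in every CPP-Se dog, and -0.35 for CYBB, -0.13 for NCF4, -0.021 for RAC1 and 0.14 for CYBA, all with overlapping groups. Without MMP9, a choice made after seeing the data, the values were 0.90 for RAC2, again without overlap, and -0.060 for CYBB, 0.16 for NCF4, 0.27 for RAC1 and 0.43 for CYBA, with overlap. Against the 10 monocyte markers, also chosen after seeing the data, the difference was 0.17 for CYBB and 0.50 for RAC1, both with overlapping groups. RAC2 (1.14), CYBA (0.67) and NCF4 (0.39) were higher in every CPP-Se dog. All 10 of these markers had a negative log2 fold change, so a gene with unchanged FPKM also rises on this scale. How many of all genes tested separate on either relative scale was not computed. Among the members, RAC2 alone was higher in every CPP-Se dog relative to both marker lists. CYBB and RAC1 overlapped between the groups against each list.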

How the data were processed

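Whole blood mRNA of 3 control and 3 CPP-Se dogs was analysed, with groups and replicate numbers from the sample titles. Per the labels and the study's methods, the authors cleaned the reads (fastp 0.19.7), aligned them with HISAT2 2.0.5 and computed FPKM from gene length and mapped reads, and featureCounts 1.5.0-p3 is in the submitters' processing notes. The authors called DEGs with DESeq2. The deposited FPKM were used here. FPKM multiplied by gene length and by 1 library size found for each dog gave whole reads (tolerance 0.001) for 100% of values, and these library sizes were 0.882 to 1.65 times the reads on genes. The FPKM thus carry a scaling that the methods do not describe.

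The 9847 genes that averaged 1 FPKM or more were tested on log2(FPKM + 1), a scale that understates the change of low genes, with limma 3.58.1 (lmFit, eBayes with trend, two-sided) in R 4.3.3, with Benjamini-Hochberg adjustment over all of them. Tables and exact tests were made in Python 3.11.15 with pandas 2.3.3 and scipy 1.17.1. The fit was tested on simulated data. Genes named were the members, genes of the family by symbol (some are not reported here), and in each list the most positive and most negative gene. The members and lists were chosen with earlier results of these data known. Alternatives were another pseudocount (0.1), other filters, scalings and weights, robust eBayes, the replicate block, limma-voom on recovered reads, and each dog left out. The number of dogs, 3 per group, limits the precision, and p-values cover the spread between them.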

Additional observations from a re-analysis of the deposited data

How the results depend on the processing

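No member passed under any of the 16 alternatives, and each kept its direction. The 3 genes called over all genes, all lower in the CPP-Se group, became 0 with a pseudocount of 0.1, 0 without a filter on FPKM, 1 with a mean FPKM of at least 5, 1 with limma-voom on recovered reads (where 2 members had an unadjusted p under 0.05, against 0 to 2 over all alternatives), and 12 with a common sum of FPKM (8 higher, 4 lower). Leaving out each dog in turn gave 0 to 14, the highest without CPP-Se replicate 2. With the replicate block 1 gene was called, and the ratios then had an exact sign-flip p = 0.25. Deviations of samples of the same number had correlations of -0.0900 to 0.0165, which gave no sign of a pairing. With 3 dogs per group this check cannot exclude one, and the labels state none. With a dog left out, CEBPE ranged from -0.072 (without CPP-Se replicate 1) to 1.00 and PIK3C3 from -0.063 (without CPP-Se replicate 3) to 0.27, both reversed at the lower end. The summed T cell markers differed by -248.2 FPKM (CPP-Se minus control) and by 114.6 FPKM without CD4. The cause was not tested. The planned ratio of NCF1 over NCF4 could not be computed. With 3 dogs per group, no exact permutation test could reach p = 0.05, and the confidence intervals of NCF4, RAC1, CYBA and RAC2 included 0.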

Other observations

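The genes whose log2(FPKM + 1) ran most like that of each member over the 6 dogs were picked by Pearson's r among 4258 genes with a symbol and a mean of at least 5 FPKM, as a description. For CYBB they were TOLLIP (r = 0.997) and NIBAN2 (0.988), for CYBA C9H17orf64 (0.990) and TAF10 (0.982), and for NCF4 MSRB1 (0.991), a selenoprotein that reduces methionine sulfoxide, and APOBR (0.977). For RAC1 they were LSM10 (0.996) and FKBP5 (0.992), and for RAC2 ABR (0.982), a GTPase-activating protein of Rac, and THAP3 (0.977). All points share 6 libraries and the difference between the groups, and among so many genes values near 1 arise in any case. Log2 fold changes of these genes, CPP-Se minus control, were -0.36 for TOLLIP, -0.33 for MSRB1 and 0.23 for ABR, and none passed the test.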
